A study of Mus musculus with 840 samples.

Results

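EpCAM, CD24 and the integrins are the surface proteins by which mouse mammary epithelium is divided into luminal and basal cells in the cell sorter. The RNA of 9 of these genes (Epcam, Cd24a, Itga2, Itga3, Itga6, Itgb1, Itgb3, Itgb4 and Itgb6) was followed across the sorting gates of a single-cell RNA sequencing study of Notch1 activation, to see how far it went with gates that were drawn on protein. They were taken by symbol from the 39154 gene identifiers of the count matrices, and all 9 passed the filter on low counts. No cell was left out for its Epcam reads, although the study's own analysis removed cells with few.

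EpCAM, encoded by Epcam, is a homophilic adhesion molecule of epithelial cells that luminal cells carry at a high and basal cells at a lower level. CD24, encoded by Cd24a, is a small glycosylphosphatidylinositol-anchored protein that is likewise used to enrich luminal cells. Integrins are heterodimers of an alpha and a beta subunit that bind the extracellular matrix. Itga6 encodes CD49f, which pairs with the Itgb4 product in the hemidesmosomes that fix basal cells to laminin, and with the Itgb1 product (CD29), the common partner of many alpha subunits including those of Itga2 (CD49b, in a collagen receptor) and Itga3 (CD49c, in a laminin receptor). The products of Itgb3 (CD61) and Itgb6 pair with the alpha V subunit. CD49f and CD29 are high on basal cells, and CD49b and CD61 have been used to separate luminal subsets.

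The cells came from mammary glands of SMACreERT2/N1ICD and K5CreERT2/N1ICD mice, index-sorted into 96-well plates and prepared by Smart-seq2, which reads polyadenylated RNA without molecular identifiers. In every mouse tamoxifen at P21 had activated a Rosa26 allele that carries the Notch1 intracellular domain (N1ICD) and, through an IRES, nuclear GFP. Recombination depends on the Acta2 (SMA) or the keratin 5 promoter and so starts in basal cells. GFP+ cells carry active N1ICD, whereas GFP- cells are the unrecombined cells of the same treated mice and not cells of untreated mice. The luminal gate was EpCAM high and CD49f low, the basal gate EpCAM low and CD49f high, and the intermediate gate lay between them, after cells positive for CD45, CD31 or Ter119 had been excluded. Epcam and Itga6 RNA is therefore not independent of the gates at the level of the gene, only at the level of the molecule measured. No sort intensity of a cell was used here.

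The 8 plates stand as replicates. SMACre plates had been chased for 1 week (plate 1, 2 mice), 3 weeks (plate 2, 2 mice; plate 3, 2 mice; plate E, 1 mouse), 4 weeks (plate 4, 1 mouse) and 6 weeks (plate 5, 1 mouse), and K5Cre plates G and L, of 2 mice each, for 3 weeks, although the sample names of plate L give 6 weeks. Plates 1, 2 and 5 formed sequencing batch 1, plates 3 and 4 batch 2, and plates E, G and L batch 3. Of the 744 cells sequenced in first runs 95.6% passed limits on mitochondrial reads, genes and reads, and 530 also had at most 1 read of Dcpp1, a salivary secretory gene that the study's methods also used as a limit. Basal, intermediate and luminal GFP+ cells made up 21.5%, 42.6% and 22.8% of them, and 18 basal, 12 intermediate and 39 luminal cells were GFP-. The Dcpp1 limit removed 25.5% of the cells that had passed the others, and plate 2 kept 7 of its 91. For plates 1 to 4 the study's own tally of cells gives the intermediate and luminal gates the other way round from the labels, and the labels were used. Kept cells held 103081 to 3363298 reads, with batch medians of 403391, 397250 and 1497829.

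The labels of the gates were checked against marker RNA. The summed level of 8 basal markers ran from 2263 to 16390 CPM (a gene's counts scaled to a total of 1000000) over the 5 basal GFP+ plates and from 29.2 to 1167 over the 6 luminal GFP+ plates, and that of 5 luminal keratin and claudin genes ran from 244.8 to 1320 and from 5915 to 15420 respectively. In the intermediate GFP+ gate of plates 1, 3 and 4 the luminal genes summed to 1308, 1621 and 714.6 CPM, against 5915, 15420 and 12940 in the luminal GFP+ gate of the same plates, so on these plates the higher luminal level went with the luminal label. The GFP- luminal cells of the SMACre plates 1 to 5 are annotated as ER-negative, yet 2 of 6 on plate 1 and 2 of 7 on plate 5 had a summed level of 1000 CPM or more of 5 hormone receptor-positive markers. A level below is the CPM of the reads summed over a gate's cells on a plate, given as mean ± SD over plates. It cannot tell fewer expressing cells from less RNA per cell.

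Epcam RNA followed the order of the gates on every plate that held all 3 GFP+ gates. In basal GFP+ cells it stood at 374, 598.1, 392.6, 411.9 and 315 CPM on plates 1, 3, 4, G and L (418.3 ± 106.8, SD, n = 5). In intermediate GFP+ cells it stood at 480.5, 914.9, 484.8, 1082 and 668.9 CPM on the same plates and at 1173 on both plates 2 and E (853.9 ± 308.03, n = 7). In luminal GFP+ cells it stood at 1244, 2110, 2299, 1546 and 1923 CPM on plates 1, 3, 4, G and L and at 2753 on plate 5 (1979 ± 538.6, n = 6). The luminal plates all lay above both other gates, whereas the basal and intermediate plates overlapped.

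**Figure D1:**
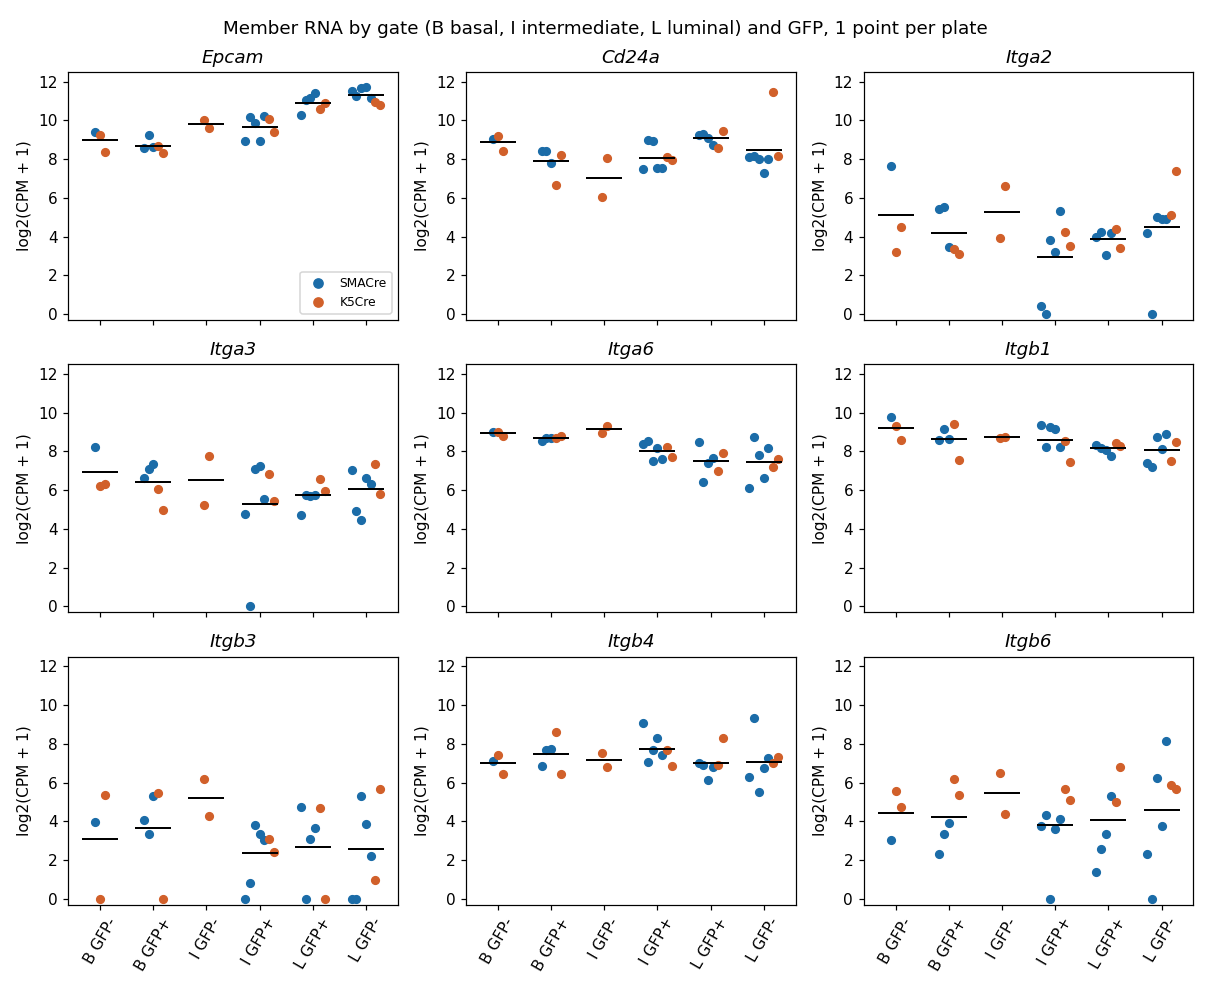
RNA of the 9 genes in the 6 gate and GFP groups, as log2(CPM + 1) of the reads summed over a group's cells on a plate. Each point is a plate (blue, SMACre; orange, K5Cre) and each bar the mean. Epcam climbs from basal to luminal in GFP+ and GFP- cells, the mean of Itga6 is lower in both luminal groups than in both basal groups, and Itga2, Itgb3 and Itgb6 scatter at low levels. On plate 3 luminal GFP- cells stand at 433.8 CPM of Itga6 and basal GFP+ cells at 414.6.

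GFP- cells gave the same order. Epcam was at 665.1, 601.4 and 324.4 CPM in basal GFP- cells of plates E, G and L (530.3 ± 181.1, n = 3), at 1034 and 782.9 in intermediate GFP- cells of plates G and L, and between 1754 and 3372 in luminal GFP- cells (2571 ± 622.8, n = 7). Ordered by level, the 6 groups ran from basal GFP+ over basal GFP-, intermediate GFP+, intermediate GFP- and luminal GFP+ to luminal GFP-, and every neighbouring pair overlapped in its plates except intermediate GFP- and luminal GFP+. Per kilobase of exon, the scale on which genes can be compared, Epcam was the highest of the 9 in basal GFP+ cells (190.6 CPM per kb, against 108.6 for Itgb1 and 45.2 for Itga6) and in luminal GFP+ cells (902, against 71.3 and 21.8).

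The sequence upstream of Epcam is shown because it was the only member that passed the test between gates, given below. Epcam lies on chromosome 17, from 87635979 to 87651129 on the plus strand (GRCm38). The window below is chr17:87635729-87636028, plus strand, from 250 bases before to 50 after the start that RefSeq gives (GRCm38.p6), and capitals mark its GC box.
Epcam: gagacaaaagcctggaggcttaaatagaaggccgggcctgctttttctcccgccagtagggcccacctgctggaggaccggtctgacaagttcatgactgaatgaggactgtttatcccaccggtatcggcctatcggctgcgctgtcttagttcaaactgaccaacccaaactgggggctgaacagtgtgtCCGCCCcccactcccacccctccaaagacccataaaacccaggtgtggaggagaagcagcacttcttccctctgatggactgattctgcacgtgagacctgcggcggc
The GC box GGGCGG, searched on both strands, occurs once on the minus strand at position -58, and 35.7% of the 32851 RefSeq promoter windows hold it. TGGGAA, the core bound by RBPJ, the DNA-binding partner of N1ICD, was in none of the windows found for Epcam, Itga2, Itga3, Itgb1 and Itgb6 and is in 25.6% of all windows, and TATAAA was in none of them and is in 13.6%. The letters are described only, and no windows were matched for Cd24a, Itga6, Itgb3 and Itgb4.

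Between luminal and basal GFP+ cells, Epcam was the only one of the 9 genes to pass the test. It rose by 2.05 ± 0.24 (log2 difference ± SE, a 4.13-fold difference; adjusted p = 8.33e-05, edgeR's quasi-likelihood test with Benjamini-Hochberg adjustment), and was higher on 5 of 5 plates, by 3.33-fold to 6.1-fold. Over all 20119 genes tested 0.701% passed in this comparison, 61 higher and 80 lower. Within the K5Cre plates of batch 3 and within the SMACre plates of batches 1 and 2 Epcam also passed. Cre line and batch cannot be told apart among plates that hold both gates.

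Between luminal and basal GFP- cells the difference was of the same size. Epcam rose by 2.28 ± 0.30 (4.84-fold, adjusted p = 0.000119), on 3 of 3 plates, by 3.23-fold to 5.41-fold, and was again the only one of the 9 to pass, where 1.62% of all genes did. The luminal to basal difference in GFP+ cells minus that in GFP- cells was -0.23 ± 0.35 (adjusted p = 1). Its interval of 2 SE reached from -0.93 to 0.47, and 0.00497% of all genes passed this test. When the fit held the basal and luminal GFP- groups alone the difference was 2.13 and no longer passed (adjusted p = 0.144).

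The intermediate gate gave less firm differences. Luminal GFP+ cells held more Epcam RNA than intermediate GFP+ cells, by 1.22 ± 0.22 (2.33-fold, adjusted p = 0.0264), on 5 of 5 plates, by 1.43-fold to 4.74-fold, where 7.86% of all genes kept 1 direction. Epcam was the only one of the 9 called, where 0.154% of all genes were. This call was lost without plate 3 (adjusted p = 0.0959), plate 4 (0.123) or plate L (0.0898), and within batch 3 (0.609) and batches 1 and 2 (0.141).

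Intermediate GFP+ cells exceeded basal GFP+ cells on 5 of 5 plates, by 1.23-fold to 2.63-fold (3.66% of all genes kept 1 direction), but the log2 difference of 0.83 ± 0.23 did not pass (p = 0.00137 unadjusted, adjusted p = 1). In this comparison 0 of 9 members and 0% of all genes passed in edgeR. At an unadjusted p under 0.05 edgeR had 609 genes, and DESeq2, run as an alternative, called 373 genes, Epcam among them (0.87, adjusted p = 0.00728). Intermediate lay between basal and luminal in Epcam on 5 of 5 plates. Itga6 and Itga3 each took that position on 3 of 5 and Cd24a on 2 of 5. The share of all genes that held it on every plate was not counted.

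**Figure D2:**
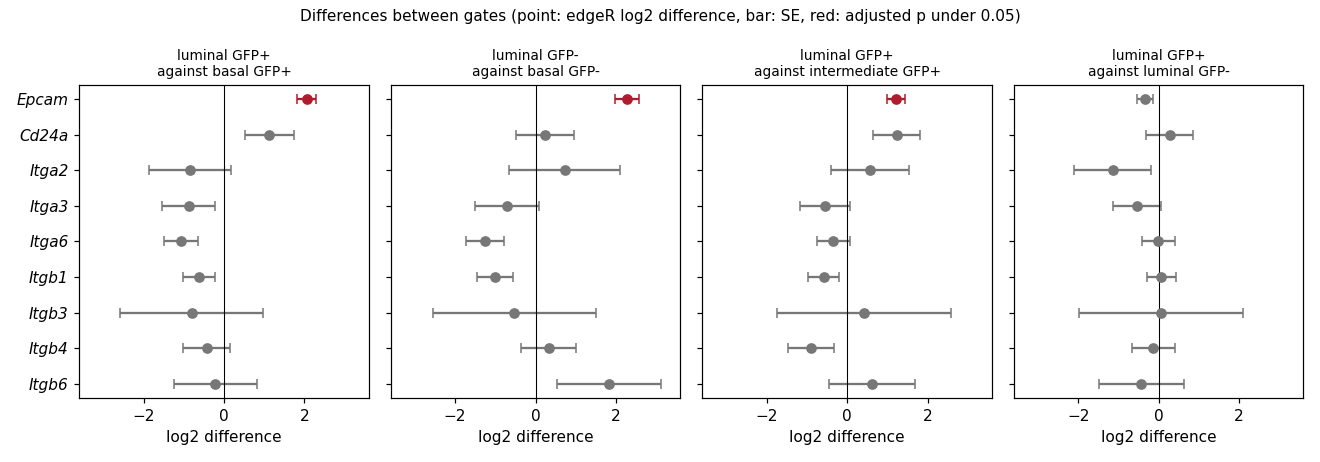
Fitted log2 difference (point) with its SE (bar) for the 9 genes in 4 comparisons, from edgeR over all plates. Red marks an adjusted p under 0.05. Epcam is the red point in 3 panels (2.05, 2.28 and 1.22), and in the comparison of luminal GFP+ with luminal GFP- no gene is red.

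Itga6, the gene of the second gating antigen, ran against Epcam but did not pass. In basal GFP+ cells it was at 371.3, 414.6, 406.9, 411.9 and 436.9 CPM on plates 1, 3, 4, G and L (408.3 ± 23.7, n = 5), the narrowest spread of any of the 9 genes in any group of 3 or more plates relative to its mean. In luminal GFP+ cells it was at 355.6, 85.58, 171.2, 127.8 and 237.3 CPM on those plates and at 204.04 on plate 5 (196.9 ± 94.5, n = 6). The 2 gates did not overlap, but on plate 1 they differed by little.

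The log2 difference of luminal from basal GFP+ cells in Itga6 was -1.07 ± 0.43 (p = 0.0192, adjusted p = 0.336), with a 2 SE interval from -1.92 to -0.22. Itga6 was lower on 5 of 5 plates, at 0.206 to 0.958 of the basal level; 9.77% of all genes moved in one direction on all 5 plates, and in 3.15% the gates did not overlap. In GFP- cells it was lower on 3 of 3 plates, at 0.28 to 0.553 of the basal level (-1.25 ± 0.47, p = 0.0139, adjusted p = 0.223), where 25.5% of all genes kept 1 direction. Itga6 thus had the lower level in each luminal gate without a call in either comparison.

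Intermediate GFP+ cells stood at 267.8 ± 74.8 CPM of Itga6 (n = 7, 181.5 to 373.5), below basal GFP+ cells on 5 of 5 plates (-0.73 ± 0.40, adjusted p = 1). They did not differ detectably from luminal GFP+ cells (-0.34 ± 0.41, adjusted p = 0.908), and that sign turned (0.21) when cells with fewer than 2 Epcam reads were left out. On plate 1, 1 of the 5 intermediate cells carried 1032 CPM of Itga6 with 1 Epcam read and 10430 CPM of fibroblast markers, and without it that plate's intermediate Itga6 level was 27.96 in place of 333.1. Its part in the difference was not tested beyond that change of sign.

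The intermediate GFP- cells stood apart from the intermediate GFP+ cells in Itga6. They held 491.5 and 643.8 CPM on plates G and L, against 293.9 and 206.8 in GFP+ cells of the same plates, and their level of 567.7 ± 107.7 (n = 2) was the highest of the 6 groups. With 2 plates of 6 cells each this was not tested. The Itga6 groups of lowest mean, luminal GFP+ and luminal GFP- (207.2 ± 124.7, n = 7, 69.01 to 433.8), overlapped widely and differed by -0.01 ± 0.41.

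The ratio of the 2 gating genes also differed between basal and luminal cells. The Epcam to Itga6 ratio of CPM had a median of 1 in basal GFP+ plates (0.721 to 1.44), 3.24 in intermediate GFP+ plates (1.44 to 6.09) and 12.75 in luminal GFP+ plates (3.5 to 24.7). In GFP- plates the medians were 1.17, 1.66 and 13.6. Basal and luminal plates did not overlap with or without GFP, whereas the intermediate and luminal GFP+ plates, which Epcam alone kept apart, overlapped in the ratio.

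Single cells followed the gates less strictly than sums did. More Epcam than Itga6 reads were found in 57.9% of basal GFP+ cells (95% Clopper-Pearson interval 48.3 to 67.1), in 85.4% of intermediate (80.1 to 89.7) and in 97.5% of luminal GFP+ cells (92.9 to 99.5). These intervals cover counting error only. Basal plates ranged from 16.7% to 77.3%. Reads were compared without regard to length, and the exons of Itga6 (9.03 kb) are longer than those of Epcam (2.19 kb), so basal cells with more Epcam reads held more Epcam RNA per length by a wider margin.

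**Figure D3:**
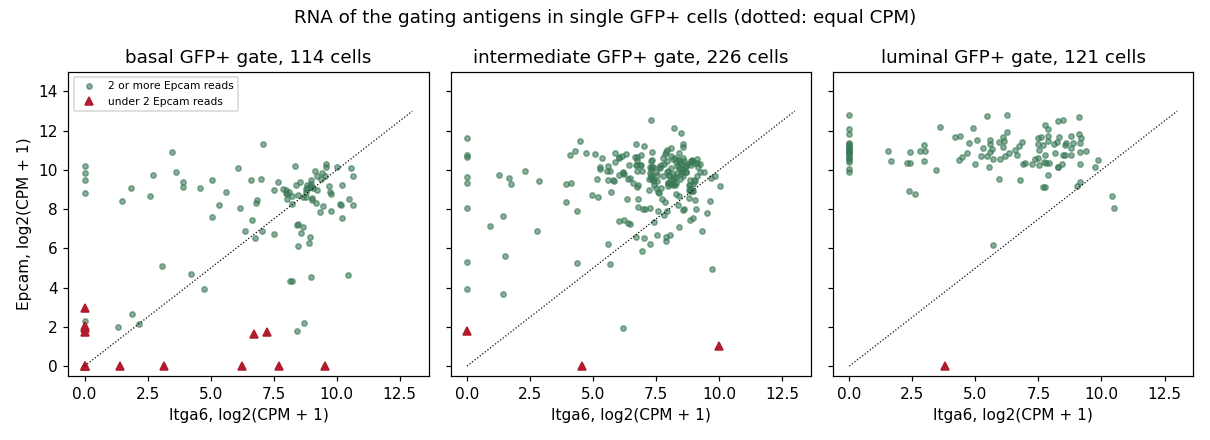
Epcam against Itga6 RNA, both as log2(CPM + 1), in each GFP+ cell of the basal, intermediate and luminal gates. Red triangles are cells with fewer than 2 Epcam reads, 14 of them in the basal gate, and the dotted line marks equal CPM. Basal cells lie on both sides of the line, and 97.5% of luminal cells have more Epcam than Itga6 reads and lie above it.

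The cells were also compared pair by pair within a plate. A luminal GFP+ cell had more Epcam CPM than a basal GFP+ cell in 90.9% ± 10.5 of pairs (n = 5 plates, 73.7 to 100, lowest on plate 1), and a luminal GFP- cell more than a basal GFP- cell in 95.7% ± 5.16 (n = 3). An intermediate cell exceeded a basal GFP+ cell in 65.8% ± 10.99 of pairs, where 50% means no order. Luminal cells had more Itga6 than basal cells in 31.6% ± 13.8 of GFP+ pairs and 23.5% ± 1.41 of GFP- pairs. Epcam RNA in a single cell thus ranked luminal over basal in most pairs, and Itga6 ranked them in the opposite order less sharply.

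**Figure D4:**
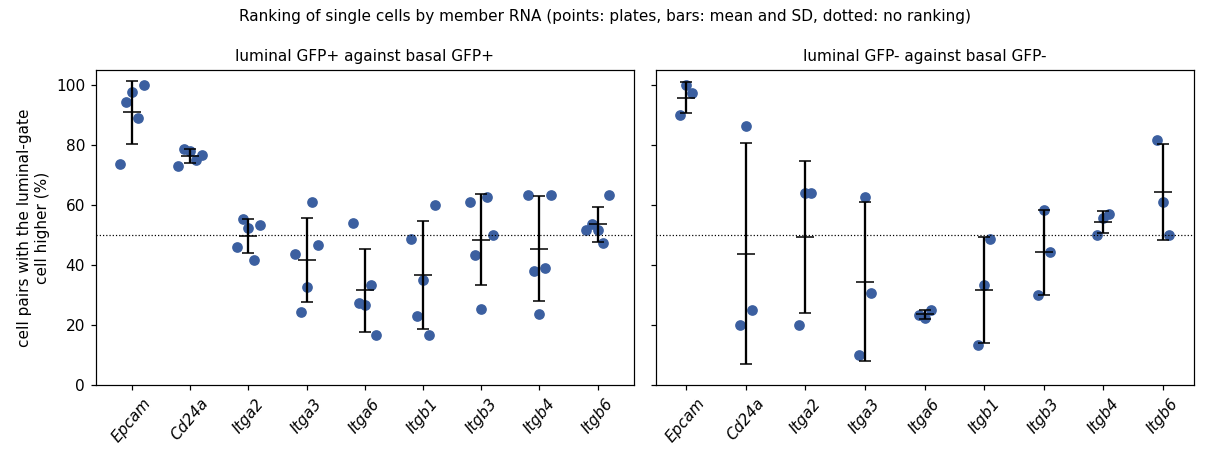
Share of cell pairs (%) in which the cell of the first-named gate has the higher CPM, for the 9 genes. Each point is a plate, with mean and SD over plates, and 50% means no order. Epcam lies near 91 and 96 between luminal and basal cells, Cd24a near 76 in GFP+ cells, and Itga6 at 31.6 and 23.5, on the other side of 50.

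With each cell thinned to 100000 reads, Epcam was detected in 84.2% of basal GFP+ cells (interval 76.2 to 90.4), 98.7% of intermediate and 99.2% of luminal GFP+ cells. Itga6 was detected in 83.3% of basal, 92.5% of intermediate and 76% of luminal GFP+ cells (67.4 to 83.3). A gate that is low for an antigen therefore still held its RNA in most cells.

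Cd24a, the second luminal antigen here and not part of the gates, was higher in luminal than in basal GFP+ cells on 5 of 5 plates. It stood at 342.5, 344.5, 218.4, 101.02 and 298.8 CPM in the basal gate of plates 1, 3, 4, G and L, and at 612.9, 637.7, 544, 384.1 and 696.6 in the luminal gate. The plates did not overlap (3.15% of all genes), with 1.79-fold to 3.8-fold more in luminal cells. The fit gave 1.13 ± 0.61 (adjusted p = 0.537), which did not pass, and its interval of 2 SE ran from -0.09 to 2.34. A luminal cell exceeded a basal one in 76.2% ± 2.28 of pairs, with the smallest spread between plates of the 9 genes in that comparison.

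Against intermediate GFP+ cells Cd24a was also higher in luminal cells on 5 of 5 plates, by 1.3-fold to 3.39-fold (1.23 ± 0.59, p = 0.0465, adjusted p = 0.573). Intermediate and basal GFP+ cells had no common order, with intermediate higher on 2 of 5 plates (-0.11 ± 0.59, adjusted p = 1). In GFP- cells the luminal gate exceeded the basal gate on plate G, at 2775 against 581.8 CPM, and was below it on plate E, at 259.2 against 533.1, and plate L, at 280.3 against 338.2 (0.24 ± 0.72, adjusted p = 0.966).

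Between luminal GFP+ and luminal GFP- cells 0 of 9 members passed in edgeR, 0 had an unadjusted p under 0.05 and 0 were called by DESeq2. Of all genes 0.0398% passed in edgeR, all of them higher in GFP+ cells, 7.19% had an unadjusted p under 0.05 and DESeq2 called 6.52%, in both directions. Epcam was lower in GFP+ cells on 5 of 6 plates, at 0.42 to 0.858 of the GFP- level, and at 1.1 on plate L (-0.33 ± 0.20, adjusted p = 0.766). No member kept 1 direction on all 6 plates, as 2.51% of all genes did. The median log2 difference of all genes in this comparison was 0.41 (0.28 with size factors by relative log expression), and Epcam lay below it. That median was taken over genes of every level tested, so it is no baseline for a gene as high as Epcam.

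Cd24a was 2.11-fold to 2.78-fold higher in luminal GFP+ than in luminal GFP- cells on plates 1, 3, 4, 5 and L, but at 0.138 of the GFP- level on plate G. The fit gave 0.27 ± 0.59 over all plates (adjusted p = 0.991), 1.27 without plate G, -1.26 within batch 3 and 1.24 within batches 1 and 2. On plate G the 6 luminal GFP- cells had 289.4 to 6297 CPM of Cd24a, and 5 of them carried 1000 CPM or more of the hormone receptor-positive list (Esr1, Pgr, Prlr, Foxa1, Cited1), a level chosen after the values were seen. Over all plates the 13 luminal GFP- cells above that level had a median Cd24a of 613 CPM and a median Epcam of 1360, and the 26 cells below it 107.9 and 2480. Without plate G, which held all 4 cells at 1000 CPM or more of Cd24a, the median of the 8 remaining cells above that level was 341.2 and that of the 25 below it 89.9. In luminal GFP+ cells the medians of Cd24a above and below it were 585.3 (7 cells) and 447.7 CPM. The part of this mixture in the comparison with GFP+ cells was not tested.

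In basal cells GFP+ and GFP- were paired on plates G and L alone, where Epcam was at 0.685 and 0.971 of the GFP- level, Itga6 at 0.804 and 0.974, Cd24a at 0.174 and 0.884 and Itga3 at 0.899 and 0.387. Of these Itga6, Cd24a and Itga3 did not overlap between the groups on both plates, a separation found in 24.1% of all genes, and none of the 9 passed the test (0.00497% of all genes did). Fitted over all plates Epcam differed by -0.10, and the sign turned without plate G.

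Itgb1, the common beta subunit, was the most evenly detected integrin. It was found in 90.4%, 95.1% and 90.9% of basal, intermediate and luminal GFP+ cells after thinning. Basal GFP+ cells stood at 382.3, 577, 394, 678.3 and 184.1 CPM on plates 1, 3, 4, G and L (443.1 ± 191.4, n = 5), intermediate GFP+ cells at 425.7 ± 185.2 (n = 7) and luminal GFP+ cells between 218.5 and 345.1 (290.8 ± 44.97, n = 6). The gates overlapped, since the basal cells of plate L lay below every luminal plate.

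The luminal difference from basal in Itgb1 was -0.62 ± 0.39 in GFP+ cells (adjusted p = 0.639) and -1.01 ± 0.45 in GFP- cells (p = 0.0323, adjusted p = 0.321), neither of which passed. In GFP- cells the basal levels were 867.7, 644.1 and 378 CPM on plates E, G and L and the luminal levels 470.8, 182.9 and 352.7. CD29, its product, is another marker by which basal cells are sorted, and the sign of its difference was that of Itga6 in both comparisons.

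Itgb4, the hemidesmosome partner of the Itga6 product, had no call and overlapped between the GFP+ gates. It ran from 114.5 to 536.3 CPM there (239.1 ± 146.3, n = 7), from 85.68 to 393 in basal GFP+ cells (201.99 ± 119.9, n = 5) and from 68.09 to 315.5 in luminal GFP+ cells (143.6 ± 86.9, n = 6). The highest intermediate value was that of plate 1, and it fell to 114.6 CPM without the cell of 10430 CPM of fibroblast markers described above. With at least 2 Epcam reads required of every cell the intermediate mean was 176.7 and the basal mean 188.2. The luminal to intermediate difference was -0.90 ± 0.58 (adjusted p = 0.717) over all plates and 0.46 within batch 3. Itgb4 shares 537 exon bases with B230344G16Rik on the opposite strand, and Smart-seq2 reads carry no strand, so reads there cannot be assigned to either.

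Itga3, of a laminin receptor, stood at 98.8 ± 52.99 CPM in basal GFP+ cells, 73.7 ± 59.1 in intermediate and 56.7 ± 22.8 in luminal GFP+ cells. The luminal level was 0.258, 0.39 and 0.314 of the basal one on the SMACre plates 1, 3 and 4, and 1.44 and 2.01 times the basal one on the K5Cre plates G and L. The fit over all plates gave -0.88 ± 0.66 (adjusted p = 0.711) and turned to 0.66 within batch 3. The SMACre plates were of batches 1 and 2, so the Cre lines cannot be told apart from the batches.

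The subunits Itga2, Itgb3 and Itgb6 were low in every GFP+ gate. Itga2 averaged 22.8 ± 19.1, 12.7 ± 13.2 and 14.4 ± 4.94 CPM in basal, intermediate and luminal GFP+ cells, Itgb3 21.2 ± 18.6, 6.05 ± 4.66 and 11.6 ± 11.4, and Itgb6 27.8 ± 28.2, 20.4 ± 16.5 and 33.01 ± 41.5. Their SE in the luminal to basal comparison of GFP+ cells was 1.02, 1.78 and 1.03 on the log2 scale, so that differences of 2-fold were within error. Thinned detection ranged from 10.5% to 35% of cells. At these levels no order of the GFP+ gates was detectable for the 3 genes. In GFP- cells Itgb6 was higher in the luminal gate on 3 of 3 plates, at 283.4, 57.1 and 49.4 CPM on plates E, G and L. The basal gate was at 7.05, 45.9 and 25.5, and the difference did not pass in edgeR (1.83 ± 1.29, adjusted p = 0.574). Of all genes 25.5% kept 1 direction there, and in 15.1% the gates did not overlap, as in Itgb6. Itga2 and Itgb3 had no common direction there.

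The 9 members had no common direction. Their median log2 difference was -0.62 between luminal and basal GFP+ cells (-0.05 over all genes) and 0.24 between luminal and basal GFP- cells (-0.18), with both signs among them in each.

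Levels by chase are given side by side, since 1 plate stood for most times and the times were spread over batches. Epcam in luminal GFP+ cells of the SMACre plates was 1244 CPM at 1 week, 2110 at 3 weeks, 2299 at 4 weeks and 2753 at 6 weeks, while luminal GFP- cells of the same plates were at 2958, 2461, 3200 and 3372. The share of the GFP- level was 0.42, 0.858, 0.718 and 0.817. The 1-week and the 6-week plates were of the same batch. Luminal GFP+ Epcam was thus lowest on the 1-week plate, where 1 of the 6 luminal GFP- cells had 9557 CPM and their median was 1615. By cell pairs a luminal GFP+ cell exceeded a luminal GFP- cell in 33.3% of pairs on that plate, 45.5% on plate 3, 31.4% on plate 4 and 34.4% on plate 5, so that by this measure the 1-week plate did not stand apart.

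Itga6 in luminal GFP+ cells was 0.958 of the basal GFP+ level at 1 week, 0.206 at 3 weeks and 0.421 at 4 weeks in SMACre mice, and 0.31 and 0.543 in the K5Cre plates G and L. On the 1-week plate a luminal cell ranked above a basal one for Epcam in 73.7% of pairs, and for Itga6 in 53.9%. Of the 9 luminal GFP+ cells on it 1 had no Epcam read and 4762 CPM of endothelial markers, and without it the levels were 1376 CPM of Epcam and 392 of Itga6. With or without that cell the 1-week luminal gate differed least from the basal gate in Itga6. Another of the 9 cells had 1439 CPM of Itga6 and 266.8 of Epcam, and the next highest had 583.8 of Itga6. The part of that cell in the small difference was not tested. The same 9 cells summed to 1609 CPM of hormone receptor-positive markers, 3 of them at 2670 CPM or more, and to 23670 CPM of salivary markers, against 45.01 to 243.9 and 1.09 to 422.1 CPM on the other SMACre plates. The part of these cells in the 1-week levels was not tested.

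**Figure D5:**
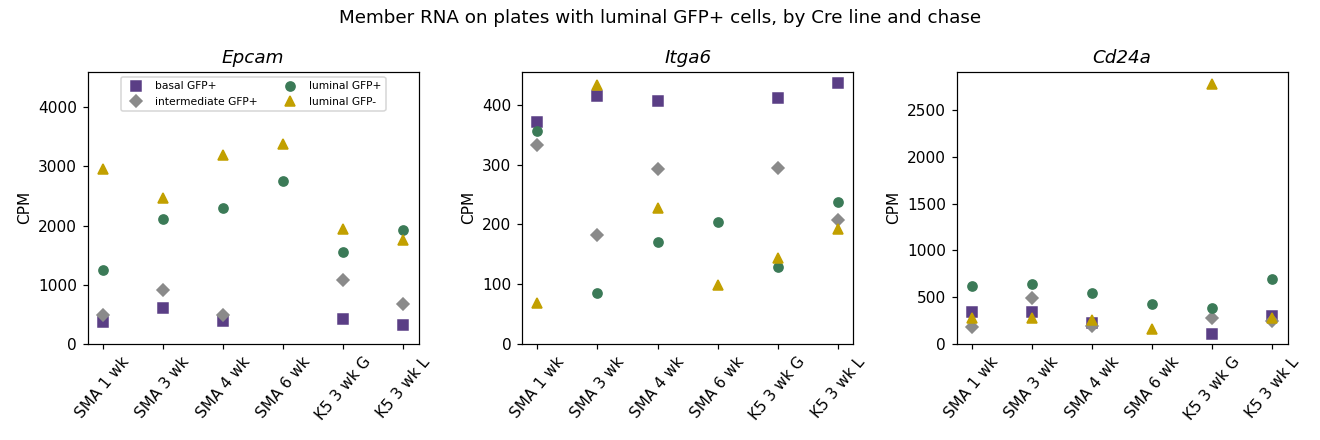
CPM of Epcam, Itga6 and Cd24a on the 6 plates with luminal GFP+ cells, by Cre line and weeks of chase, with 1 symbol per gate and GFP group. Luminal GFP+ Epcam is 1244 at 1 week and 2753 at 6 weeks, luminal and basal GFP+ Itga6 nearly coincide at 1 week (355.6 and 371.3), and Cd24a in luminal GFP- cells stands apart on plate G (2775).

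In GFP+ cells most K5Cre values of Epcam lay inside the SMACre range, and in GFP- cells they lay below the SMACre values. Basal GFP+ cells held 411.9 and 315 CPM against 374 to 598.1 in SMACre plates, and luminal GFP+ cells 1546 and 1923 against 1244 to 2753, with the basal cells of plate L below that range. Luminal GFP- cells held 1945 and 1754 CPM against 2310 to 3372 in SMACre plates. Basal GFP- cells held 601.4 and 324.4 against 665.1 on plate E, the only SMACre plate with that group. Of the luminal GFP- cells, 5 of 6 on plate G and 2 of 6 on plate L carried 1000 CPM or more of hormone receptor-positive markers. On SMACre plates 0 to 2 did. Over all plates luminal GFP- cells above that level had a median Epcam of 1360 CPM, against 2480 below it. The part of this mixture was not tested. The Epcam luminal to basal ratio was 3.75 and 6.1 in K5Cre and 3.33 to 5.86 in SMACre plates. These values are a description, and no test between Cre lines was made.

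Of the 530 cells 19 had fewer than 2 Epcam reads. They lay in the basal GFP+ gate in 14 cases, and 14 came from plate 1. Endothelial markers (Pecam1, Cdh5, Kdr, Emcn) summed to 1427 to 4762 CPM in 6 of them, 5 on plate 1, of which 5 had an Itga6 read (up to 210.6 CPM) and all 6 had Itgb1, at 36.6 to 275.1 CPM. Fibroblast markers reached 1000 CPM in 3, 1 of them among those 6, and a basal GFP+ cell of plate G had 29500 CPM of them with 743 CPM of Itga6 and no Epcam read. Basal markers reached 1000 CPM in 9, of which 6 had no Itga6 read and 6 fewer than 2000 genes. Pericyte markers reached 1000 CPM in 3 (2412 to 5717), 2 of them among those 9.

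Leukocyte markers were at 0 in all 19 cells, Ptprc (CD45) included, and Pecam1, the gene of CD31, had reads in 8 of 19 (42.1%) against 18.2% of the other cells. Without that cell the basal GFP+ sum of plate G was at 519.2 CPM of Epcam and 325.5 of Itga6. Without all 19 cells the calls of Epcam between luminal and basal cells, and between luminal and intermediate GFP+ cells, stood as before. Their identity was not assigned beyond these markers.

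Several genes that work with EpCAM differed between the gates in the same direction. Of the 8 listed 4 rose in luminal against basal GFP+ cells, where 0.303% of all genes did, and none fell. Among those that rose were Spint1 (3.74 ± 0.57, adjusted p = 0.00186) and St14 (2.55 ± 0.41, 0.00248), a protease inhibitor and the membrane protease it restrains, and Cdh1 (1.31 ± 0.31, 0.0453), E-cadherin. In GFP- cells 5 of 8 rose (0.383% of all genes), the same 4 genes and Cldn7, the claudin that binds EpCAM, which stood at 0 to 5.88 CPM on the basal and 290.6 to 710.4 on the luminal plates (adjusted p = 0.0206). St14 alone rose from intermediate to luminal GFP+ cells (2.04 ± 0.40, 0.0377). The list's median log2 difference was 2.32 in GFP+ and 2.47 in GFP- cells, against -0.05 and -0.18 over all genes.

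Among genes on the integrin side few passed. Of 18 other integrin subunits tested 0 passed in any of the 7 comparisons by edgeR, where between luminal and basal cells 4 (GFP+) and 3 (GFP-) had an unadjusted p under 0.05 and DESeq2 called 4 and 4. Over all genes the shares were 10.6% and 13.3% at an unadjusted p under 0.05 and 8.5% and 12.4% by DESeq2. Of 21 adhesion and hemidesmosome partners Dst, which encodes the plakin BPAG1, fell in luminal cells against basal GFP+ (-2.11 ± 0.36, adjusted p = 0.0035), intermediate GFP+ (-2.05 ± 0.35, 0.0148) and basal GFP- cells (-1.84 ± 0.40, 0.0139), and Col17a1, a hemidesmosomal collagen, fell in the last, from 310.8 to 527.4 CPM on the basal plates to 0 to 103.8 on the luminal plates (adjusted p = 0.0411). Of 11 laminin subunits, the ligands of the Itga6 and Itga3 products, 3 fell in luminal against basal GFP- cells. Lama1 was at 3.03 to 261.6 CPM on the basal plates and at most 0.312 on the luminal ones (adjusted p = 0.00109), and Lamb1 at 174.9 to 303.9 and at most 21.2 (0.000892), while Lamc1 fell by 2.78 ± 0.69 on the log2 scale (0.0376). In GFP+ cells 0 of 11 passed by edgeR. There 6 had an unadjusted p under 0.05 and DESeq2 called 5, against 10.6% and 8.5% of all genes. The test of the GFP+ against the GFP- difference called 0 genes of these 3 lists in edgeR, where 0.00497% of all genes passed. At an unadjusted p under 0.05 edgeR had 2 integrin, 3 partner and 3 laminin genes there, against 5.41% of all genes. DESeq2 called 3, 0 and 2 of them, and over all genes 452 higher and 485 lower.

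Of 9 other surface markers for mammary sorting that were tested, Kit rose in luminal against basal GFP+ cells, from 0 to 14 CPM on the basal plates to 229.6 to 1801 on the luminal plates (adjusted p = 0.00294). It encodes a receptor tyrosine kinase of luminal progenitors, and the remaining 8 did not pass. Over all genes 0.303% rose in this comparison. Of the 9 markers 4 had an unadjusted p under 0.05 (10.6% of all genes). DESeq2 called 4 of the 9, and over all genes 681 higher and 1030 lower.

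The genes whose levels ran most like Epcam over the 30 plate and gate sums, after plate means were subtracted, were St14 (Pearson r = 0.918), Ctsh (0.917), Basp1 (0.913), Aqp5 (0.905) and Spint1 (0.896). For Itga6 they were Plpp3 (0.828), Rbpms (0.807), Selenom (0.786), Pltp (0.78) and Sema6d (0.771), and for Itgb1 they included Timp2 (0.825) and Rsu1 (0.798). Epcam and Itga6 themselves had r = -0.626. The sums share plates, mice and depth, and these values are descriptive.

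Repeat sequencing of the libraries of plate 5 gave the error that sequencing adds to a cell's value. Error from capture and amplification is shared by both runs and was not measured. In 92 wells that passed in both runs, with median depths of 254194 and 182067 reads, log2 levels of Epcam correlated at r = 0.99 and those of Itga6 at 0.942, across cells of 1 plate. The Dcpp1 limit, which 44 of the plate's 93 quality-passed cells met, was not applied to these wells. Epcam was detected in all 92 wells in both runs, whereas Itga6 was detected in 1 run alone in 8 wells and Itgb4 in 15. The median absolute difference between runs was 0.0576 for Epcam and 0.278 for Itga6 on the log2 scale, so a single cell's Itga6 value carried more sequencing error than its Epcam value.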

How the data were processed

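Per the labels and the study's methods, single cells were index-sorted, prepared by Smart-seq2 with Nextera XT and sequenced as 50-base single-end (batches 1 and 2) or paired-end reads (batch 3). The submitters' processing notes name Trim Galore 0.6.5, STAR 2.7.7a, HTSeq 0.13.5 and GRCm38, and the authors deposited raw read counts per gene and cell. The counting strand is not given in the sources used here, and reads mapping to several genes were not counted.

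Cells were grouped by labelled gate and GFP. A cell was used if it had more than 100000 reads and 1400 genes, less than 10% of its reads from mitochondria, and no more than 1 read of Dcpp1. Spike-ins and HTSeq summary rows were left out. They took 8.31%, 6.64% and 0.214% of reads in batches 1, 2 and 3 as spike-ins. The repeat run of plate 5 was left out of all comparisons.

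Read counts were summed over at least 3 cells per plate and group, giving 30 sums, and tested with edgeR 4.0.16 (R 4.3.3, filterByExpr, TMM, quasi-likelihood) in a single fit of plate plus group over 20119 genes with 17 residual degrees of freedom. The threshold was a Benjamini-Hochberg adjusted p of 0.05. The SE of an edgeR log2 difference was back-calculated, as its absolute size divided by the square root of the test's F statistic. It is thus not an SE reported by the fit itself. The plate is the block because its cells share mice and preparation, and 2 of 8 plates hold all 6 groups. CPM values were computed from the sums, log2 levels with a pseudocount of 1. Alternatives were DESeq2 1.42.0, limma 3.58.1 on mean CPM, other filters, scalings, blocks and cell limits, and single plates or batches left out. The fit was tested on simulated counts. Named genes were the 9 members, list genes past the threshold (up to 5 per list) and the 3 to 5 genes most correlated with a member, and a few results for such genes are not reported here. Members and lists were chosen with earlier results of these data known.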

Additional observations from a re-analysis of the deposited data

Results flagged for a closer look

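Of 36 sets of 4 or more plates (a gene in a group) 6 held a plate far from the others. They were Cd24a in luminal GFP- cells of plate G (2775 CPM, next 280), Itga2 in luminal GFP- cells of plate L (163.6, next 33.3), Itgb4 in luminal GFP+ cells of plate L (315.5, next 130) and in luminal GFP- cells of plate 3 (640.7, next 159.2), and Itgb6 in luminal GFP+ cells of plate L (111.9, next 39) and in luminal GFP- cells of plate E (283.4, next 74.8). These sums rest on 3 to 6 cells each.

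In 4 cases every SMACre plate moved one way and both K5Cre plates the other, a difference that was not tested. The share of all genes that split in this way was not counted. Cre line and batch cannot be told apart there. The luminal to basal ratio of Itga2 in GFP+ cells was 0.342, 0.392 and 0.726 on SMACre plates 1, 3 and 4 and 2.19 and 1.31 on K5Cre plates G and L, and its intermediate to basal ratio 0.00748, 0.294 and 0.812 against 1.93 and 1.4. Both Itga2 cases share the same basal levels, and their levels all lay between 0.319 and 44.8 CPM. For Itga3 the luminal to basal ratio was 0.258, 0.39 and 0.314 against 1.44 and 2.01. For Itgb1 the intermediate to basal ratio was 1.73, 1.05 and 1.43 against 0.555 and 0.947.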

How the results depend on the processing

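The calls of Epcam between luminal and basal cells, GFP+ and GFP-, kept their direction and stayed past the threshold under every alternative run, except that the GFP- call was lost with the 2 compared groups alone (2.13, adjusted p = 0.144). No other member was called under any alternative. No called member changed sign. Calls of Epcam over intermediate GFP+ cells (members called 0 in place of 1) were lost with Cre line and chase as the unit (1.17, adjusted p = 0.101), with the compared groups alone (1.23, 0.279), within batch 3 (0.90, 0.609), within batches 1 and 2 (1.52, 0.141), and without plates 3, 4 or L, while left-out plates gave 1.03 to 1.38 and 0 to 1 members. DESeq2 added 1 call, Epcam between intermediate and basal GFP+ cells (0.87). Of the uncalled values given in the text, those that reversed were Epcam in basal GFP+ against GFP- cells without a plate (-0.21 to 0.18), Epcam in the GFP+ minus GFP- difference within batch 3 (0.15), Itga6 in luminal against intermediate GFP+ cells with at least 2 Epcam reads (0.21), Itgb4 there within batch 3 (0.46), Itga3 in luminal against basal GFP+ cells within batch 3 (0.66), and Cd24a in luminal GFP+ against GFP- cells within batch 3 (-1.26) and over left-out plates (-0.03 to 1.27). Cd24a between intermediate and basal GFP+ cells (-0.11) turned with the compared groups alone (0.11), no limit on Dcpp1 (0.08), at most 100 Dcpp1 reads (0.07), batch 3 (0.54) and over left-out plates (-0.31 to 0.15), and between luminal and basal GFP- cells (0.24) with Cre line and chase (-0.01), limma (-0.33) and over left-out plates (-0.69 to 0.71). Itga6 between the luminal groups (-0.01) turned with Cre line and chase (0.24), the compared groups alone (0.09), at least 2 Epcam reads (0.21), no limit on Dcpp1 (0.25), at most 100 reads (0.16), thinned cells (0.09), batches 1 and 2 (0.06) and over left-out plates (-0.41 to 0.46). Over all 63 pairs of a member and a comparison 0 to 20 signs turned per setting, most within batch 3.

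The plate is the replicate block. With no replicate block, Epcam kept its 3 calls (2.13, 2.12 and 1.10). Its GFP+ minus GFP- difference turned to 0.01, Cd24a between the luminal groups turned to -0.33 and between intermediate and basal GFP+ cells to 0.12, and genes called in luminal against intermediate GFP+ cells went from 0.154% to 0.313% of those tested and in the GFP+ minus GFP- difference from 0.00497% to 0.00994%.

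The number of genes called, given as the percent of the genes each setting tested, moved far more, and the cause was not tested. In the order luminal against basal GFP+ (0.701%), luminal against intermediate GFP+ (0.154%), luminal against basal GFP- (1.62%), luminal GFP+ against GFP- (0.0398%), basal GFP+ against GFP- (0.00497%) and the GFP+ minus GFP- difference (0.00497%), DESeq2 called 8.5%, 6.09%, 12.4%, 6.52%, 3.55% and 4.66%, and 1.85% between intermediate and basal GFP+ cells (0%). With no filter on low counts all but luminal against basal GFP- moved, to 1.52%, 0.884%, 0.254%, 0.0243% and 0.127%, and intermediate against basal 0.073%. The compared groups alone gave 0.324% in luminal against basal GFP- cells and 0% in all but that and luminal against basal GFP+. Limma on mean CPM gave 2.48%, 0.9%, 3.31%, 0.00497%, 0% and 0%, and thinned cells 2.69%, 1.1% and 3.53%, with 0% in the last pair. Batch 3 gave 0.0886%, 0.0388% and 1.02%, then 0%, and batches 1 and 2 gave 0.111%, 0.0415% and, between the luminal groups, 0.00692%. No limit on Dcpp1 gave 1.44%, 0.371%, 2.44% and, for the GFP+ minus GFP- difference, 0%, and at most 100 Dcpp1 reads 1.69%, 0.619% and, for that difference, 0.00959%. For the same difference RLE size factors gave 0.00994%, Cre line and chase as the unit 0.00857% and at least 2 Epcam reads 0%, and for basal GFP+ against GFP- cells Cre line and chase gave 0%. Plates left out one at a time gave 0.247 to 0.694%, 0.0403 to 0.217%, 0.646 to 1.89%, 0 to 0.0504%, 0 to 0.00504% and 0 to 0.0202%. The share moved over 1.5 times for luminal against basal GFP+ cells without plate 1, 3, 4, G or L, for luminal against intermediate without 3, 4, 5, E or G, and for luminal against basal GFP- without E, G or L. Calls were 43.3% higher between luminal and basal GFP+ cells in edgeR and 39.8% in DESeq2, but 23.6% and 46.4% in GFP- cells, and 38.7% and 20.4% against intermediate cells.

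Depth limits single cells. Epcam was detected in 93% of basal GFP+ cells with all reads and in 95.1% of intermediate GFP+ cells at 5 reads or more. Itga6 was detected in 71.1%, 81.4% and 57% of basal, intermediate and luminal GFP+ cells at 5 reads or more, and in 96.0% of intermediate and 83.5% of luminal cells with all reads. With at least 2 Epcam reads the GFP- share of Itga6 pairs was 21.8%. The mean Itga6 level of basal GFP+ cells was 356.5 CPM with no limit on Dcpp1 and 358.6 with at most 100 reads.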
